A study of Mus musculus with 21 samples.

Results

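The Cyp4a genes encode cytochrome P450 enzymes that hydroxylate fatty acids at the end of the chain. Rows of the expression table were taken as members where their gene symbol begins with Cyp4a followed by a digit, which gave 8 of 25428 rows: Cyp4a29, Cyp4a12a, Cyp4a12b, Cyp4a30b, Cyp4a14, Cyp4a10, Cyp4a31 and Cyp4a32. The family was chosen by its measured knockout against control values, so that contrast is given below as a description of the members, with no p-value for any of them and nothing read from how many were called.

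RNA of whole livers from 21 mice was hybridised to Affymetrix arrays, 1 array per mouse. The 10 Gata4-LSEC-KO mice carried a floxed Gata4 allele (Gata4tm1.1Sad/J) with a Cre transgene (C57BL/6N-Tg(Clec4g-icre)1.1Sgoe) whose driver, the lectin gene Clec4g, is active in liver sinusoidal endothelial cells, and the 11 control mice were siblings with the genotype given as wt. Both groups were fed a standard diet, and the labels name neither sex nor age, nor whether wt controls carried the Cre transgene or floxed alleles. The sample numbers fall into 2 runs of consecutive numbers, called number runs here, with 4 knockout and 5 control livers in run 1 and 6 knockout and 6 control livers in run 2. Values are on the log2 scale of RMA, a method that corrects background and brings all arrays to 1 distribution, with a lower quartile of 2.98 and a median of 3.75 on each array.

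Omega-hydroxylation turns a fatty acid, in steps through alcohol and aldehyde dehydrogenases, into a dicarboxylic acid that peroxisomes can shorten. In mouse liver hepatocytes express these enzymes, and Cyp4a10 and Cyp4a14 are textbook targets of PPAR alpha, a nuclear receptor that binds fatty acids and, with its partner RXR, a direct repeat of the hexamer AGGTCA spaced by 1 base. Cyp4a12a and Cyp4a12b are known in the mouse as male-biased enzymes that also act on arachidonic acid.

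Gata4, the targeted gene, had a lowest, median and highest value of 6.10, 6.51 and 6.92 in knockout livers, against 6.34, 6.68 and 7.35 in control livers. The groups overlapped, and the difference of −0.19 ± 0.10 (knockout minus control, SE) did not pass the threshold in the limma fit with genotype and number run as terms (adjusted p = 0.264). Clec4g itself was lower by 0.92 ± 0.23 on the log2 scale in knockout livers (adjusted p = 0.0176), a call that was lost without the run term and within run 1 (adjusted p up to 0.432). All livers held Xist RNA, between 10.45 and 10.90 in knockout livers and between 10.46 and 10.97 in control livers. The 3 measured Y-linked transcripts stayed between 2.34 and 2.98 in knockout livers and between 2.32 and 2.79 in control livers. High Xist with Y-linked transcripts near or below the lower quartile of 2.98 is the pattern of female livers, and all 21 livers had it.

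Cyp4a14 and Cyp4a10 stood apart from the other members: both were much lower in most knockout livers, while 1 knockout liver held the highest value of either gene among all 21 livers. Cyp4a14 read 5.10, 11.79, 6.11 and 4.61 in knockout livers 1 to 4 of run 1, and 7.03, 5.56, 4.50, 6.29, 7.67 and 3.65 in knockout livers 5 to 10 of run 2. In control livers it read 8.79, 10.49, 10.05, 10.35 and 11.23 in run 1 and 8.81, 6.73, 8.73, 8.54, 9.96 and 8.73 in run 2. Against controls of the same run, 7 of 10 knockout livers lay below the lowest control, 1 (knockout liver 2) lay above the highest, and the other 2 (livers 5 and 9) lay within the control range. The mean was 6.23 ± 2.30 in knockout livers and 9.31 ± 1.25 in control livers (SD, n = 10 and n = 11), a difference of −3.00 ± 0.70 (SE), or 8.03-fold lower in knockout livers. Without knockout liver 2 the knockout mean was 5.61 ± 1.29 (n = 9) and the difference −3.61 ± 0.52, or 12.2-fold lower.

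Cyp4a10, the other strongly inducible hydroxylase, followed the same livers. It read 7.20, 12.14, 8.43 and 4.87 in knockout livers 1 to 4 and 9.28, 7.40, 6.46, 8.27, 9.41 and 5.78 in knockout livers 5 to 10. In control livers it read 9.50, 11.002, 10.66, 11.29 and 11.87 in run 1 and 9.01, 9.60, 9.60, 10.01, 10.19 and 10.01 in run 2. Again 7 knockout livers lay below the lowest control of their run and knockout liver 2 above the highest, with livers 5 and 9 inside the control range. The mean was 7.92 ± 2.08 in knockout livers and 10.25 ± 0.87 in control livers (SD), a difference of −2.28 ± 0.63, or 4.86-fold lower in knockout livers, and 6.79-fold lower without knockout liver 2.

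The difference of Cyp4a14 ranked 2 and that of Cyp4a10 ranked 3 among the lowest of all 25428 rows, and 4 rows were lower by more than 2. These were the 2 of 8 members past an adjusted p of 0.05 in this contrast, both lower in knockout livers, where 7.33% of all rows were called, 4.05% lower and 3.28% higher; the count is given as a description only. In whole livers, fewer cells of a type and less RNA per cell cannot be told apart.

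**Figure D1:**
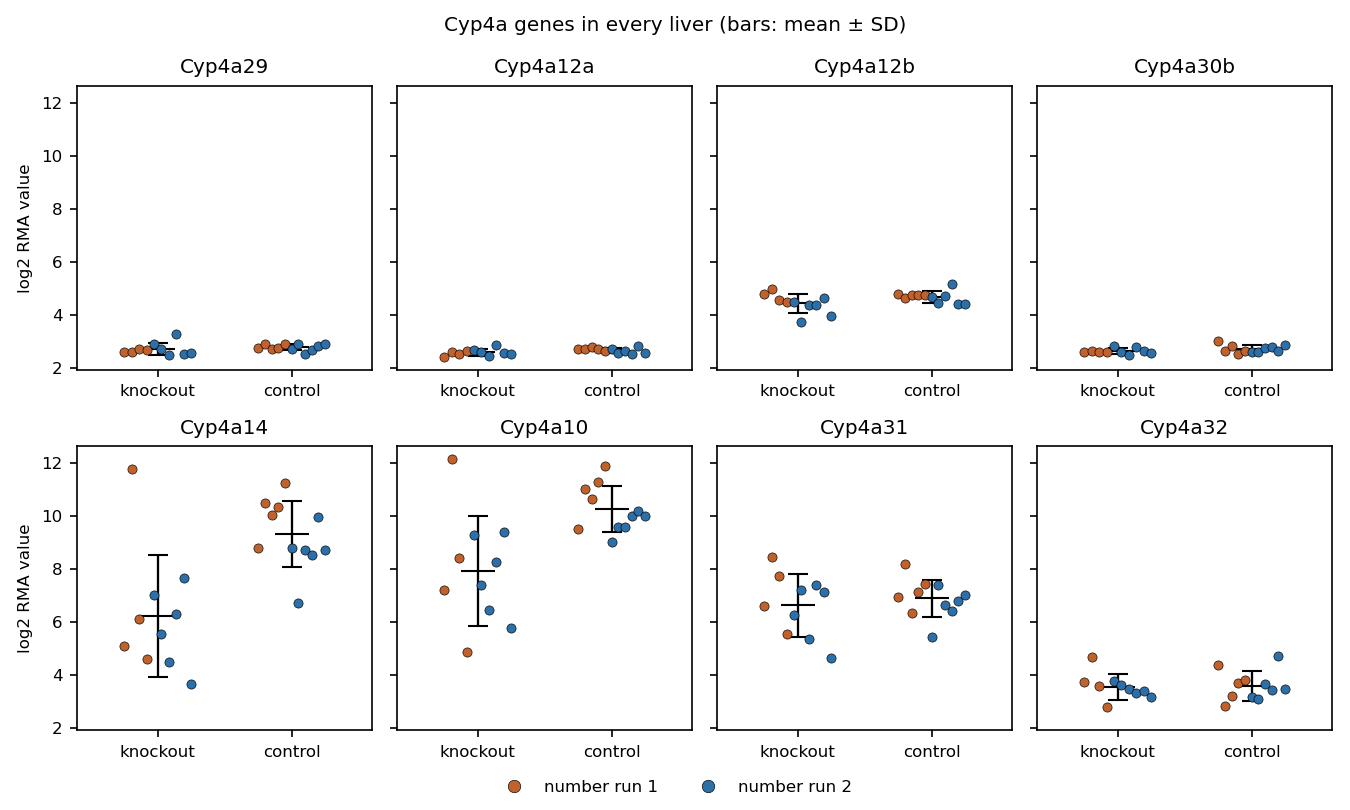
Log2 RMA value of each Cyp4a gene (vertical axis) in every knockout liver (left) and control liver (right); points are livers, coloured by number run, and bars are the mean ± SD. For Cyp4a14 and Cyp4a10 most knockout livers sit below the controls and 1 run 1 knockout liver sits at the top (11.79 and 12.14), while the other 6 genes overlap between genotypes.

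Cyp4a31 lies beside Cyp4a10 in the same cluster and Cyp4a32 farther along it, and their own roles in the liver are less well described. Cyp4a31 had a lowest, median and highest value of 4.65, 6.88 and 8.44 in knockout livers, against 5.44, 6.96 and 8.20 in control livers. The groups overlapped broadly, with 3 knockout livers below the lowest control of their run and 1, liver 2, above the highest. Its difference was −0.22 ± 0.37, and with 1 liver left out it ran from −0.40 (without knockout liver 2) to −0.03 (without knockout liver 4). Cyp4a32 was dim, at 3.56 ± 0.49 in knockout livers and 3.59 ± 0.56 in control livers (SD), and it lay under the array median of 3.75 in 16 of 21 livers. Its difference was −0.03 ± 0.22.

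Cyp4a12b averaged 4.43 ± 0.37 in knockout livers and 4.67 ± 0.22 in control livers (SD), a difference of −0.23 ± 0.11. In 6 knockout livers it lay below the lowest control of their run, and in 1 above the highest. The difference was −0.04 within run 1 and −0.38 within run 2. Cyp4a12a, its close relative, averaged 2.59 ± 0.13 in knockout livers and 2.66 ± 0.10 in control livers and lay under the lower quartile of the array in all 21 livers. Cyp4a29 averaged 2.70 ± 0.23 in knockout livers and 2.77 ± 0.12 in control livers, and Cyp4a30b averaged 2.63 ± 0.10 in knockout livers and 2.71 ± 0.15 in control livers. Each lay under the lower quartile in 20 of 21 livers, a range that can be close to background. All 8 member differences were below 0, as were 54.9% of all rows; the member median was −0.15, against −0.01 over all rows. Probe sequences were not used here, so signal shared between near-identical Cyp4a transcripts cannot be told apart.

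After the mean of each genotype and run was removed, Cyp4a14 had an SD of 2.36 in knockout livers and 0.98 in control livers. The SD of Cyp4a10 was 2.20 in knockout livers and 0.67 in control livers, and that of Cyp4a31 was 1.19 in knockout livers and 0.67 in control livers. Without knockout liver 2, a setting chosen after seeing the data, the knockout SDs were 1.35 for Cyp4a14, 1.58 for Cyp4a10 and 1.12 for Cyp4a31. These spreads were not compared by a test.

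The members lie in 1 cluster on chromosome 4, and the 2 that were lowest in knockout livers are next to each other among the measured genes. Among the neighbours, Cyp4x1, Cyp4x1os, Cyp4b1-ps2, Cyp4b1 and Efcab14, none passed the threshold in the same fit. The lowest of them was Cyp4b1, another P450 of the same larger family, at −0.30 ± 0.18 (adjusted p = 0.34). Beside 7.33% of all rows called in either direction, 1 of the 15 measured Cyp4 genes outside the Cyp4a group passed. This was Cyp4v3, another fatty acid hydroxylase, which averaged 10.35 ± 0.16 in knockout livers and 10.63 ± 0.15 in control livers (SD), a fall of 0.27 ± 0.06 on the log2 scale (adjusted p = 0.0139) that did not pass within either run alone. The median difference of the 15 was −0.02, and their range was −0.30 to 0.18.

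**Figure D2:**
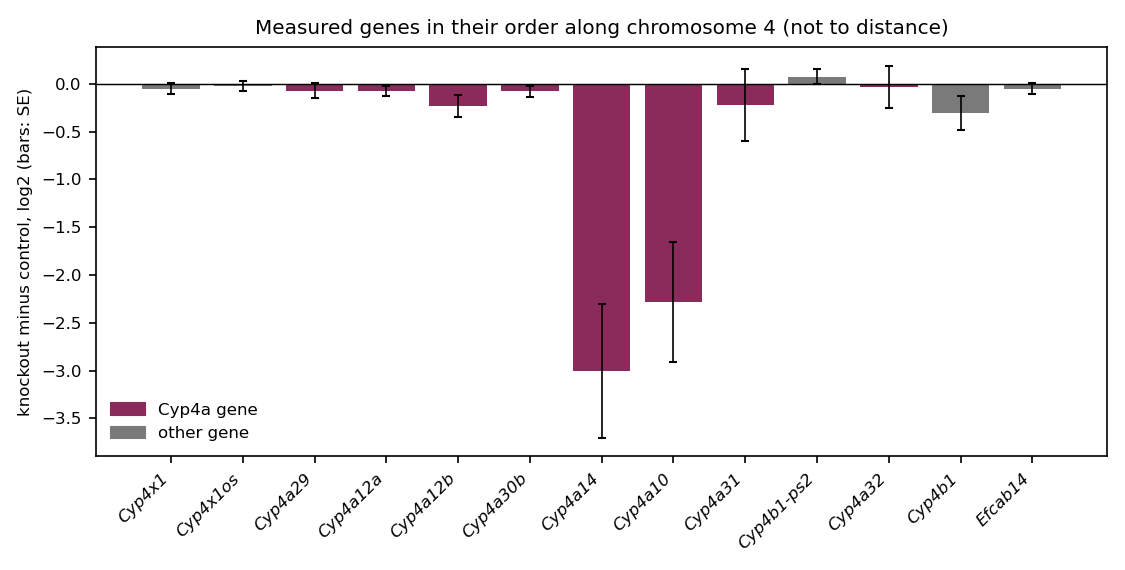
Knockout minus control difference (vertical axis, log2, bars SE of the fit) of the measured genes in their order along chromosome 4 (horizontal axis, not to distance), with Cyp4a genes in purple and other genes in grey. Cyp4a14 (−3.00) and Cyp4a10 (−2.28) stand side by side, and every other gene lies between −0.30 and 0.08.

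Start-site windows of 300 bases (250 before and 50 after the start, RefSeq, GRCm38.p6) were at hand for 3 of the 8 members, Cyp4a29, Cyp4a30b and Cyp4a32, and not for Cyp4a14 or Cyp4a10. A member on each side of the Cyp4a14 and Cyp4a10 pair is shown, with a window of Cyp4a29 that holds 1 such hexamer (in capitals, minus strand, first base at −205 from the start) and a window of Cyp4a32 that holds none. For comparison, the third line gives a looser form of the repeat (any base at the fourth letter of each hexamer) in the window of Fabp1, the liver fatty acid binding protein and a gene of the PPAR alpha target list (capitals, minus strand, first base at −67). The stretches are chr4:115241794-115242093, chr4:115600688-115600987 and, for Fabp1, chr6:71199804-71199832, all on the plus strand.
Cyp4a29: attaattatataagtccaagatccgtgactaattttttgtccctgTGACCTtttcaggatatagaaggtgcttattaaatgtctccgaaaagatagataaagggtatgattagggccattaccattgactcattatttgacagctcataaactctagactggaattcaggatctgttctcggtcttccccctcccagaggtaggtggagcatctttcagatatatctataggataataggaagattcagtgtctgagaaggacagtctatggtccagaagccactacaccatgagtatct
Cyp4a32: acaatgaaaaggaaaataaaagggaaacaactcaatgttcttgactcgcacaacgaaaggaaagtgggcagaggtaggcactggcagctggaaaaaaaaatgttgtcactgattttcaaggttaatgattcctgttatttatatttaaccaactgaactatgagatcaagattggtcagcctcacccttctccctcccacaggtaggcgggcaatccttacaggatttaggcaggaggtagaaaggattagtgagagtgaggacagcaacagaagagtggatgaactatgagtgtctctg
Fabp1: acaatcacTGACCTATGGCCTatatctga

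The search covered both strands for the exact repeat (the hexamer, any base, the hexamer again), for a looser repeat that takes any base at the fourth letter of each hexamer and so includes the exact one, and for the single hexamer AGGTCA, which the exact repeat also contains. The exact repeat was in none of the 3 member windows and in 0.0396% of all 32851 windows. The looser repeat was in none of the 3 and in 0.381% of all windows. The single hexamer was in 1 of the 3, against 16.3% of all windows. Of 39 PPAR alpha target genes with a window, 1, Fabp1, held the looser repeat and 11 held the single hexamer. The 3 member windows shared 51.9% to 56.9% of aligned positions with each other. A match is a description of letters and not a bound site.

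Cyp4a14 and Cyp4a10 varied together between livers of the same genotype. Over 21 livers, with the mean of each genotype and run removed, Pearson's r was 0.91 and Spearman's rho 0.88 (adjusted p = 0.00088 for each, from 100000 permutations within genotype and run, over 44 relations). Without the 2 livers farthest from the median r was 0.84. It was 0.96 within knockout livers and 0.65 within control livers, and 0.85 over all livers but knockout liver 2. Knockout livers 2, 5, 8 and 9 were above the mean of their genotype and run in both genes, livers 1, 4, 6, 7 and 10 were below it in both, and liver 3 was below it in Cyp4a14 and above it in Cyp4a10.

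Cyp4a31 followed Cyp4a10 less closely, at r = 0.74 (adjusted permutation p = 0.0268) and rho = 0.70 (adjusted permutation p = 0.0807), so it passed by Pearson's r and not by Spearman's rho. Without the 2 farthest livers r was 0.63, and it was 0.82 within knockout livers and 0.43 within control livers. None of the other pairs of members passed.

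**Figure D3:**
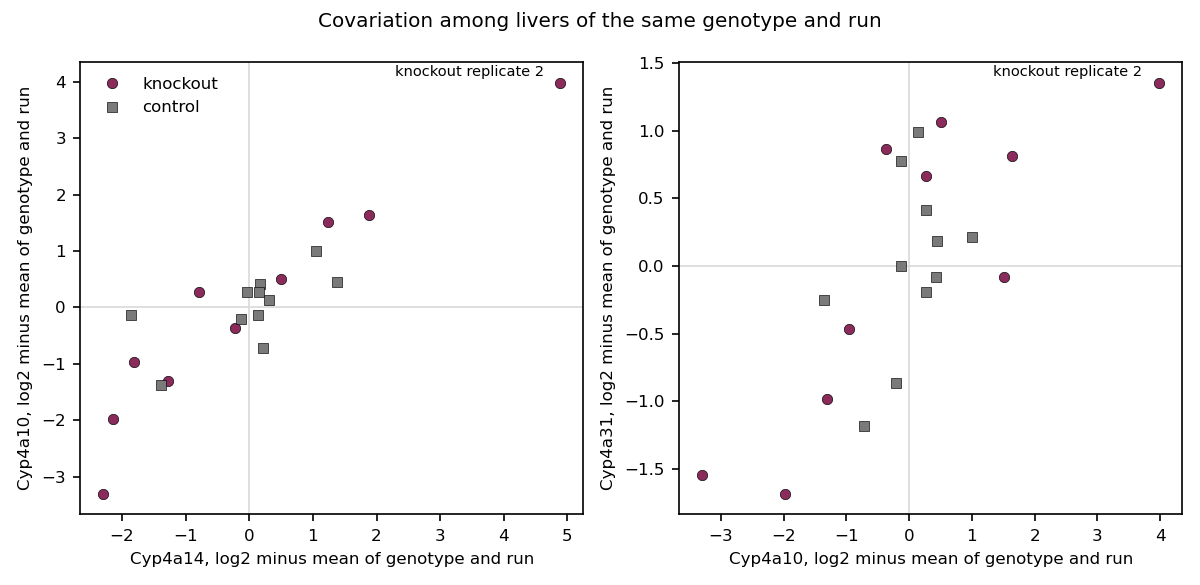
Deviation of each liver from the mean of its genotype and run (log2), Cyp4a14 against Cyp4a10 on the left and Cyp4a10 against Cyp4a31 on the right, with knockout livers as circles and control livers as squares. Points rise together in both panels (r = 0.91 and r = 0.74), and knockout replicate 2 is at the top right of each.

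PPAR alpha is the receptor best known for switching Cyp4a10 and Cyp4a14 on. Its own transcript, Ppara, averaged 8.24 ± 0.25 in knockout livers and 8.42 ± 0.28 in control livers (SD), a difference of −0.18 ± 0.10 (adjusted p = 0.332). The groups overlapped. The correlation of Ppara with Cyp4a14 was r = 0.21 (adjusted permutation p = 0.763) and with Cyp4a10 r = 0.19 (adjusted permutation p = 0.763), and no member passed against Ppara.

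A list of 50 PPAR alpha targets without the Cyp4a genes, of which 44 were measured, had 4 genes lower in knockout livers and 0 higher at an adjusted p under 0.05. At 9.09% this stood beside the 4.05% of all rows called lower. Abcd3, the peroxisomal importer of branched and dicarboxylic acyl-CoAs, fell by 0.40 ± 0.08 (adjusted p = 0.00782), and Acaa1b, a peroxisomal thiolase, fell by 0.67 ± 0.16 (adjusted p = 0.0165). Txnip, a thioredoxin-binding protein better known for its response to glucose, fell by 0.72 ± 0.19 (adjusted p = 0.0225). Acadvl, the mitochondrial dehydrogenase of very long chain acyl-CoAs, fell by 0.27 ± 0.08 (adjusted p = 0.0351). The Acadvl call was lost when any of 11 single livers was left out (adjusted p up to 0.0708), without the run term and within each run. In all, 38 of the 44 differences were below 0, and the list's median was −0.26, against −0.01 over all rows. Cpt1a, which carries acyl groups into mitochondria, stood on the other side at 0.34 ± 0.12 (adjusted p = 0.0999), and passed without knockout liver 4 (0.43, adjusted p = 0.0226) or without control liver 5 (0.39, adjusted p = 0.0495).

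The count turned on knockout liver 2. That liver was singled out after seeing that it was highest in Cyp4a14 and Cyp4a10. Both genes varied with the target list between livers, so results without liver 2 are given as a description only. Without that liver 18 of the 44 targets were lower and 0 higher, and the median was −0.35. Over all rows 4.04% were then called lower and 3.46% higher. Without knockout liver 5 the count was 8. Knockout liver 2 held the highest value of all 21 livers in 19 of the 44 genes, and of the 10 knockout livers in 33. Acot1, a cytosolic acyl-CoA thioesterase, read 7.74 there, at most 4.34 in the other 9 knockout livers, and 4.27 to 6.49 in control livers. Its difference was −0.81 ± 0.33 over all livers (adjusted p = 0.143) and −1.16 without liver 2 (adjusted p = 0.000788). Retsat, a retinol saturase, read 10.66 in knockout liver 2, at most 9.51 in the other knockout livers, and 8.57 to 10.77 in control livers. Its difference was −1.05 ± 0.33 (adjusted p = 0.053) and −1.33 without liver 2 (adjusted p = 0.00413); it also passed without knockout liver 5, knockout liver 9 or control liver 3 (adjusted p between 0.0317 and 0.0444).

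**Figure D4:**
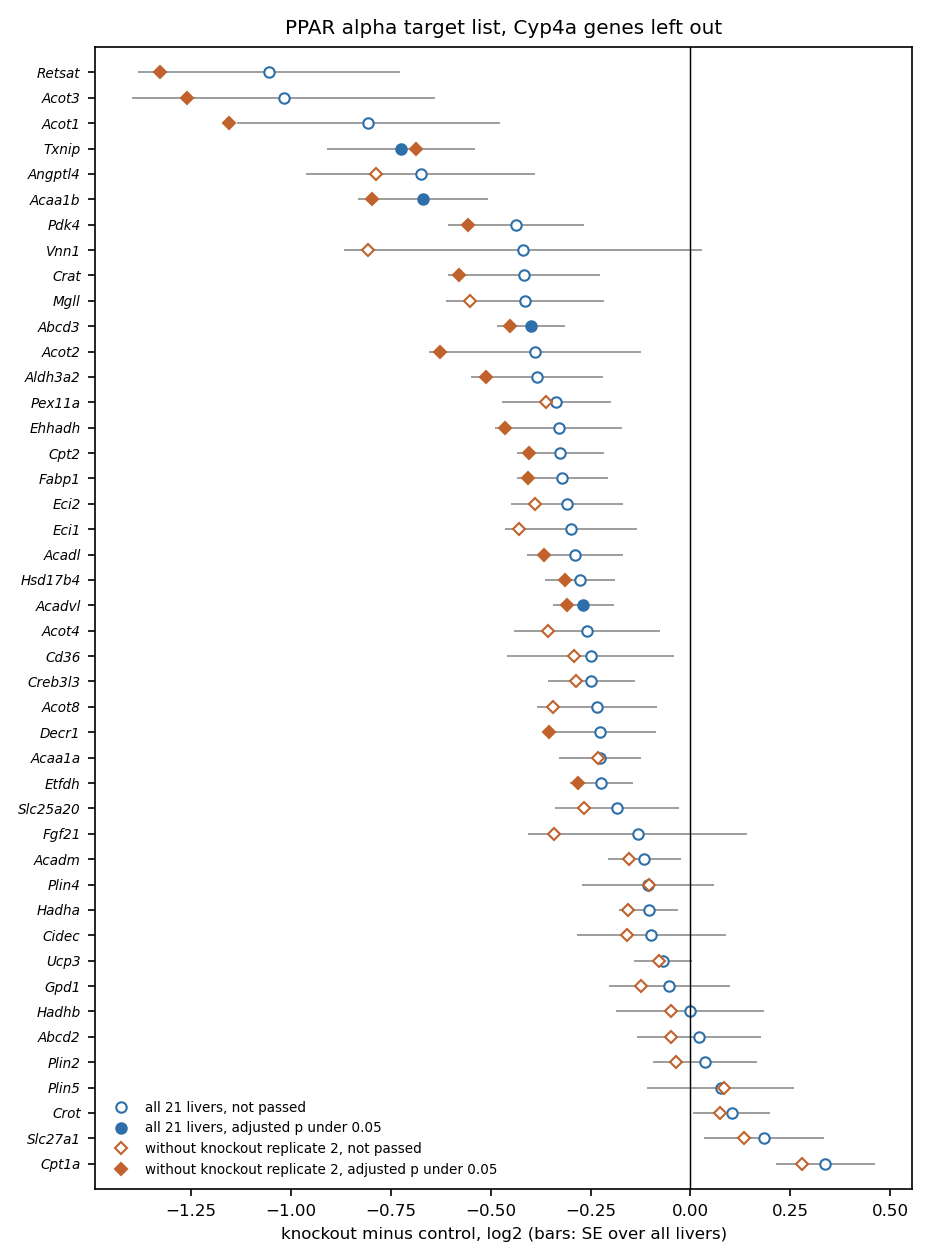
Knockout minus control difference (horizontal axis, log2) of the 44 measured PPAR alpha targets (rows), with circles for all 21 livers, diamonds without knockout replicate 2, filled symbols for an adjusted p under 0.05 and bars for the SE over all livers. Filled circles number 4 and filled diamonds 18, and 38 of the 44 circles lie left of 0. Replicate 2 was singled out after seeing the data.

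A score per liver, taken as the mean over the 44 targets of each liver's distance on the log2 scale from control livers of its run, set the list beside the 2 genes. It ran from −0.77 to 0.51 in knockout livers, with knockout liver 2 at the top and the other 9 between −0.77 and −0.04, and from −0.27 to 0.27 in control livers. Within genotype and run the score went with Cyp4a14 at r = 0.84 and rho = 0.72 (adjusted permutation p = 0.00506 and 0.0363). With Cyp4a10 it went at r = 0.87 and rho = 0.66 (adjusted permutation p = 0.00631 and 0.0807), so that pair passed by r and not by rho. Both relations had r = 0.64 without the 2 farthest livers. For Cyp4a14 r was 0.92 within knockout livers and 0.50 within control livers, and for Cyp4a10 it was 0.94 within knockout livers and 0.55 within control livers. The score against Cyp4a31 reached r = 0.63 (adjusted permutation p = 0.0834).

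**Figure D5:**
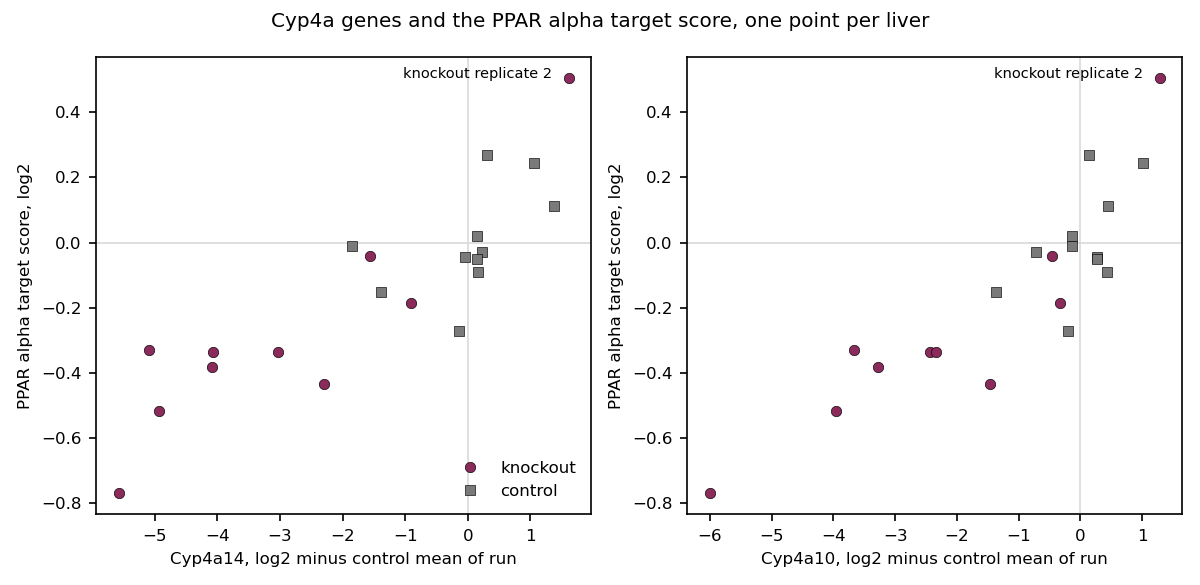
PPAR alpha target score (vertical axis, log2) against Cyp4a14 (left) and Cyp4a10 (right), each as the distance from the control mean of that liver's run (horizontal axis, log2); circles are knockout livers and squares control livers. Knockout replicate 2 has the highest score (0.51) and the other knockout livers lie between −0.77 and −0.04; the correlations in the text were computed within genotype and run.

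The genes whose values followed the members most closely were ranked by r over the same 21 livers. For Cyp4a14 they were Hsdl2, a hydroxysteroid dehydrogenase-like protein (r = 0.88, and 0.79 without knockout liver 2), Vwa8, a mitochondrial ATPase (0.86 and 0.78), and Retsat (0.86 and 0.75). For Cyp4a10 they were Vwa8 (0.94 and 0.90), Hsdl2 (0.89 and 0.81) and Slc27a2, a very long chain fatty acid transporter and acyl-CoA synthetase (0.87 and 0.79). Vwa8 fell by 0.64 ± 0.14 in knockout livers (adjusted p = 0.00934), while Hsdl2 differed by −0.20 ± 0.15 (adjusted p = 0.481) and Slc27a2 by −0.17 ± 0.11 (adjusted p = 0.393). For Cyp4a31 the first was Mgll, the lipase of monoacylglycerols (0.78 and 0.75). These are the highest values out of all named rows, so their size is part of how they were picked.

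The omega oxidation route was described by a list of 26 genes, 23 of them measured. It held dehydrogenases and peroxisomal genes of the steps after the P450 reaction, and also cytochrome b5 genes. Of the measured genes 6 were lower in knockout livers and 0 higher. This was 26.1% of the list, beside the 4.05% of all rows called lower, and Adh1, Adh4 and Aldh1a1 among the 6 are alcohol or aldehyde dehydrogenases. On the same list Adh5, Adh7, Aldh2 and Aldh3a2 did not pass, the last at −0.38 ± 0.17 (adjusted p = 0.166). Adh1, an alcohol dehydrogenase, averaged 12.61 ± 0.10 in knockout livers and 12.84 ± 0.12 in control livers (SD) and fell by 0.23 ± 0.05 (adjusted p = 0.0115). Cyb5b, a cytochrome b5 of the outer mitochondrial membrane, fell by 0.43 ± 0.10 (adjusted p = 0.0124), a call that was lost without the run term and within each run. Abcd3 and Acaa1b, given above, are also on this list. Adh4 fell by 0.47 ± 0.12 (adjusted p = 0.0251) and Aldh1a1 by 0.63 ± 0.17 (adjusted p = 0.0273, and 0.053 without knockout liver 3). The Adh4 and Aldh1a1 calls were lost within each run. The list's median was −0.23, and without knockout liver 2, a setting chosen after seeing the data, the count was 10. This list and the PPAR alpha target list share further genes, among them Acaa1a, Aldh3a2, Hsd17b4, Acot3, Acot4 and Acot8. Their counts are therefore not separate.

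Of 26 measured genes of arachidonate metabolism, the other substrate of these enzymes, 4 were lower and 2 higher in knockout livers, beside the 4.05% of all rows called lower and 3.28% called higher. The 6 calls were 3 without knockout liver 4 and 2 within run 2. Cyp2j9 fell by 0.36 ± 0.08 (adjusted p = 0.0145) and Cyp2c29 fell by 0.36 ± 0.09 (adjusted p = 0.0184), both P450 enzymes. Pla2g12b, a secreted phospholipase-like protein of hepatocytes, was higher by 0.26 ± 0.05 (adjusted p = 0.00755), a call that was lost within each run. The list's median was −0.04.

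Among 28 measured regulators of Cyp4a transcription and of the hormone and clock signals that reach it, 3 were lower and 1 higher. At 10.7% and 3.57% these stood beside the 4.05% of all rows called lower and 3.28% called higher. Nr1h4, which encodes the bile acid sensor FXR, fell by 0.39 ± 0.07 (adjusted p = 0.00264). Nr1i3, the receptor CAR, fell by 0.61 ± 0.16 (adjusted p = 0.0239), a call that was lost within each run. Ghr, the growth hormone receptor, fell by 0.29 ± 0.07 (adjusted p = 0.0139). Rxra, the partner of PPAR alpha, was higher by 0.14 ± 0.04 (adjusted p = 0.0462), a call that was lost when any of 17 single livers was left out (adjusted p up to 0.0838). The list's median was −0.08.

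Cyp4a10 and Cyp4a14 are also known to follow feeding state, inflammation and sex hormones, and lists of these states were counted in the same fit, beside 4.05% of all rows called lower and 3.28% called higher. Of 18 measured fasting-induced genes 1 was lower, G6pc, the last enzyme of glucose release, by 0.58 ± 0.12 (adjusted p = 0.00598), and of 14 feeding-induced genes 5 were lower, with medians of −0.14 and −0.60. The fasting count was 3 without knockout liver 2 or 4 or control liver 3 or 5, within run 2 or without rows under the median of row means, and 2 without knockout liver 6 or control liver 10 or 11. The feeding count was 9 without control liver 5, 3 without the run term, 8 within run 2 and 10 without rows under the median of row means. Me1, the malic enzyme, fell by 0.96 ± 0.15 (adjusted p = 0.00128), and Thrsp, a regulator of lipid synthesis, fell by 0.71 ± 0.15 (adjusted p = 0.00867). Of 24 acute phase and cytokine response genes 7 were higher, with a median of 0.33, among them Lbp by 0.68 ± 0.12 (adjusted p = 0.00244) and Lcn2 by 1.94 ± 0.39 (adjusted p = 0.0056). Of 18 male-biased genes 4 were higher, among them C6 by 1.86 ± 0.29 (adjusted p = 0.000945), and of 19 female-biased genes 2 were higher and 2 lower, with medians of −0.02 and −0.21. The 4 female-biased calls were 1 with array weights or without knockout liver 3, 4, 7, 8 or 10 or control liver 4, 2 without control liver 2, 7 or 8, and 0 within either run. The part of any of these in the Cyp4a values was not tested.

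Of 13 measured hepatocyte markers 1, the apolipoprotein Apoa2, was lower (by 0.30 ± 0.07, adjusted p = 0.0101), the list's median was 0.01, and its mean level over the list ran from 12.32 to 12.53 in knockout livers and from 12.29 to 12.56 in control livers. Of 10 sinusoidal endothelial markers 6 were lower in knockout livers, with a median of −0.45. These marker counts stood beside 4.05% of all rows called lower and 3.28% called higher. In knockout livers 7 of 11 macrophage, 6 of 9 B and plasma cell, 5 of 10 stellate cell and 1 of 10 neutrophil markers were higher, with list medians of 0.90, 0.57, 0.40 and 1.24. The neutrophil count was 4 without knockout liver 6, whose list score of 5.35 stood against a knockout median of 0.75, 3 without knockout liver 2 or without rows under the median of row means, and 2 without knockout liver 1 or with array weights. The macrophage list's mean level ran from 6.98 to 7.87 in knockout livers and from 5.48 to 7.78 in control livers, and knockout liver 2 was the highest there. Its acute phase score was −0.09, against a knockout median of 0.47, and its neutrophil score of 0.15 was the lowest of the knockout livers. None of 12 kidney tubule markers, for the other organ rich in Cyp4a, passed in limma, 1 of them, Slc5a2, had an unadjusted p under 0.05, and their mean level ran from 3.23 to 3.35 in knockout livers and from 3.24 to 3.45 in control livers. The part of these cell types in the Cyp4a values was not tested.

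The number runs gave the last comparison. Within run 1 the difference was −3.28 for Cyp4a14 and −2.70 for Cyp4a10, and within run 2 it was −2.80 and −1.97 for the same genes. The genotype by run term of limma passed for 0 of 8 members (adjusted p from 0.648 to 0.967), and 0 members had an unadjusted p under 0.05, where 0.0315% of all rows passed and 10.2% had an unadjusted p under 0.05. Among control livers alone Cyp4a14 averaged 8.58 ± 1.04 in run 2 and 10.18 ± 0.89 in run 1 (SD, n = 6 and n = 5), a difference of −1.60 ± 0.52 (limma adjusted p = 0.129). Cyp4a10 averaged 9.74 ± 0.43 in run 2 and 10.86 ± 0.88 in run 1, a difference of −1.13 ± 0.36 (limma adjusted p = 0.12). No member passed there, 2 of 8 had an unadjusted p under 0.05 in limma, and 3.57% of all rows passed and 15.9% had an unadjusted p under 0.05. Without control liver 1 the run difference of Cyp4a10 was −1.47 and passed (limma adjusted p = 0.0177). The labels do not say what the number runs stand for.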

How the data were processed

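RNA of 21 whole livers was measured on Affymetrix arrays. The deposited table held log2 values that the authors made with RMA, per the submitters' processing notes; the notes name no RMA version, and array type and build are likewise not named. The sorted values of any 2 columns differed by at most 0.0019, and scanner files were not used here. Each of the 25428 rows is 1 Entrez gene number; 24705 had 1 symbol in the platform annotation and 723 had none.

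Groups came from the labels. Genotype was fitted with lmFit and eBayes of limma 3.58.1 (R 4.3.3) on the log2 values, with number run as a term and no filter, and p-values were adjusted by Benjamini-Hochberg over all 25428 rows (threshold 0.05). Differences are knockout minus control with the standard error of the fit. A second fit held the product of genotype and run, and another compared run 2 with run 1 in controls. Correlations used values minus the mean of genotype and run, with 100000 permutations within genotype and run. Tested on simulated data, the genotype fit recovered 84% of changes of 0.5 and 98% of changes of 1 on the log2 scale, with 13 false calls among unchanged rows. The simulated errors were normal, independent between rows and equally spread in both genotypes. Cyp4a14 was not equally spread (SD 2.36 in knockout and 0.98 in control livers), so these rates do not carry over to such genes. Each array was taken as 1 animal, and the number of arrays limits the precision.

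The members and all 17 gene lists were chosen with earlier results of these data known. Of 297 listed symbols 273 were measured. Genes were named by a rule: every member, Gata4, Clec4g and Ppara, other Cyp4 genes past the threshold, up to 3 genes of each list with the lowest adjusted p, the neighbours in the cluster, and the 3 genes most like each member. Acadvl, Acot1, Adh4, Aldh1a1, Cpt1a, Fabp1 and Rxra fall outside it and were named after their values or windows were seen. Promoter windows were those of RefSeq, GRCm38.p6, matched by symbol. Replicate numbers in the 2 groups do not mark shared animals. Alternatives were no run term, each run alone, other scalings, a filter on low rows, other variance models, array weights, a replicate block, and each array left out.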

Additional observations from a re-analysis of the deposited data

Results flagged for a closer look

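In 10 knockout livers, 82 genes were examined for a single liver far from the rest, by the gap to its nearest neighbour over the whole range (against Dixon's critical value), and 13 exceeded it. Chance alone flags about 1 in 20 unrelated genes measured in 1 run. Here the 82 include members and genes picked for following them, and both runs were pooled. The 13 therefore cannot be set against that rate. Of the members, knockout liver 2 stood far above the other knockout livers in Cyp4a14 at 11.79 and in Cyp4a32 at 4.688, and knockout liver 8 did in Cyp4a29 at 3.259. Knockout liver 2 also stood far above the others in the epoxygenase Cyp2c29 at 12.58 and in 2 dim genes that followed a member, Lypd8 at 3.102 and Olfr63 at 3.072. Cyp4a10 of knockout liver 2 was the highest of its group but did not exceed the critical value.

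The other such values lay in other livers. Knockout liver 1 was low in the sinusoidal endothelial nuclease Dnase1l3 at 6.115, and knockout liver 4 was low in Otud6b at 7.848. Knockout liver 8 was high in Scrg1 at 3.017 and low in the kidney glucose transporter Slc5a2 at 3.028. Knockout liver 9 was high in Pla2g12b at 9.209. Of the Y-linked transcripts, knockout liver 10 was high in Eif2s3y at 2.742 and knockout liver 7 in Kdm5d at 2.981, both near the lower quartile of the array of 2.98.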

How the results depend on the processing

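Within run 1 alone the fit called 2 rows higher and 1 lower in knockout livers, 0 listed genes, 0 other Cyp4 genes, 0 PPAR alpha targets lower and 0 genes of the omega oxidation route lower; within run 2 alone it called 552 rows higher, 0 other Cyp4 genes, and 8 PPAR alpha targets lower and 1 higher. Fewer livers enter each of these fits. Without rows under the median of row means, 7 PPAR alpha targets were lower. Leaving out 1 liver gave 565 to 981 rows higher and 629 to 1471 lower (629 without control liver 8 and 661 without control liver 9), 51 to 86 listed genes, 3 to 18 PPAR alpha targets lower and 0 to 1 higher (1 without knockout liver 4 or control liver 5), and 5 to 10 genes of the omega oxidation route lower. The cause was not tested.

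The difference of Cyp4a14 ran from −3.61 to −2.69 and that of Cyp4a10 from −2.76 to −1.83 with 1 liver left out, and that of Cyp4a32 from −0.16 to 0.10. The genotype by run term, which never passed, ran from −0.29 to 2.11 for Cyp4a14, from −0.37 to 2.06 for Cyp4a10, from −0.022 to 0.10 for Cyp4a30b, from −0.68 to 0.29 for Cyp4a31 and from −0.55 to 0.081 for Cyp4a32. The run difference in controls ran from −1.47 to −0.87 for Cyp4a10, from −0.070 to 0.0041 for Cyp4a29, from −0.066 to 0.061 for Cyp4a30b and from −0.22 to 0.21 for Cyp4a32. Correlations of 0.91, 0.84 and 0.87 over all livers were 0.65 (Cyp4a14 with Cyp4a10), 0.50 (Cyp4a14 with the target score) and 0.55 (Cyp4a10 with the target score) within controls, and the last was 0.64 without the 2 farthest livers.

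Small differences changed sign: within run 1 Cyp4x1 (0.052), Cyp4x1os (0.037), Efcab14 (0.015), Eif2s3y (−0.056) and Tcaim (0.055); within run 2 9130410C08Rik (0.028), Gm8971 (−0.16), Slc25a41 (−0.0018), Tmem151a (0.0060) and Ttc6 (0.020); without the run term Gm8971 (−0.00068) and Ttc6 (0.0016); with array weights Gm8971 (−0.024) and Tmem151a (0.017). With 1 liver left out, 9130410C08Rik ran from −0.058 to 0.019, Cyp4x1os from −0.039 to 0.0059, Eif2s3y from −0.0092 to 0.049, Gm8971 from −0.072 to 0.040, Kdm5d from −0.011 to 0.046, Scrg1 from −0.023 to 0.034, Tmem151a from −0.045 to 0.023 and Ttc6 from −0.031 to 0.018.

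Same-numbered knockout and control livers did not deviate together (10 pairs, correlations −0.0547 to 0.165, 2 over 0.1), so the numbers pair nothing. With the replicate block the differences were −3.00 for Cyp4a14 and −2.28 for Cyp4a10, 745 rows were higher and 881 lower, and 4 PPAR alpha targets and 6 genes of the omega oxidation route were lower. RMA values carry no count of probes above background, so levels near 2.98 and below limit Cyp4a12a, Cyp4a29 and Cyp4a30b.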
